A study of Mus musculus with 8 samples.

Results

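The older B1 and proto-B1 short interspersed elements (SINEs) of the mouse were followed in lung fibroblasts with and without cGAS. Members were the copies that the deposited table annotates as class SINE, family Alu, with a subfamily name that does not begin with B1_M. The choice used names only and no measured value, although earlier results of these data were known by then. It gave 203311 copies of 9 subfamilies among 1400160 SINE copies, 2968871 retrotransposon copies and 4835895 regions in all. The largest subfamily was PB1D10 with 58530 copies, followed by B1F with 39328, PB1D9 with 26545 and PB1D7 with 22016. B1F1 had 17151 copies, B1F2 14891, PB1D11 14560, PB1 10277 and FAM 13. The 334056 copies of the B1_M subfamilies, called young B1 here, served as the comparison.

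B1 elements of rodents and Alu elements of primates descend from the same ancestor, the RNA of the signal recognition particle, and are copied by RNA polymerase III and inserted with the help of proteins made by LINE elements. Proto-B1 (PB1 and the PB1D subfamilies, which carry internal deletions) and the fossil B1F group arose early in rodents, and the B1_M subfamilies spread later. FAM is the name of a fossil Alu monomer. Old copies have collected many mutations and most cannot move. B1 elements lie mostly in gene-rich DNA.

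Chromatin accessibility was measured by ATAC-seq, in which a transposase inserts adapters where nuclear DNA is open. The cells were primary cultures of lung fibroblasts, 4 from mice labelled as cGAS knockout (KO) and 4 from mice labelled as wild type (WT), with 2 labelled female and 2 labelled male in each genotype. cGAS is an enzyme that senses DNA and starts the interferon response. Age, strain and passage were not given in the sources used here, and the comparison asks whether loss of cGAS goes with a change in open chromatin at these repeats. Libraries are named by genotype, sex label and number (KO F1, WT M2). The labels number the mice but do not describe the cultures further, so p-values measure the spread between these libraries.

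Table totals ran from 43.2 to 72.9 M counts per library, and older B1 copies held 476426 to 690898 counts, or 0.883% to 1.11% of a library. The 3 libraries KO M1, WT M1 and WT M2 stood apart, with 74.5% to 76.4% of their counts in open chromatin regions (OCRs, the deposited peaks), against 64.6% to 70.8% in the other 5. The library labelled KO F2 went against its sex label. On the Y chromosome, which carries 748 member copies, it had 0.0335 CPM per kb, against 0.0320 to 0.0802 in the libraries labelled male and 0.00073 to 0.00155 in the other 3 labelled female. CPM is counts per M of a library size scaled by TMM factors, and it was divided by copy length where levels of repeats are compared. The Cgas locus and cell-type markers were not analysed here, so neither the knockout nor the fibroblast identity was checked.

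Older B1 copies overlapped OCRs more often than young B1 copies. At least 1 bp of an OCR was shared by 10551 member copies, or 5.19% (95% Wilson interval 5.09% to 5.29%), and by 3.11% of young B1 copies, 4.50% of all SINE copies and 4.20% of all retrotransposon copies. Of the other SINE families, MIR had a higher share of 8.04%, and ID had 5.13%. PB1D7 had the highest share of the 8 large subfamilies with 6.42%, and PB1D9 the lowest with 4.33%. The other 6 lay between 5.01% and 5.39%. Each of the 8 exceeded each young subfamily, of which B1_Mm was lowest with 2.30% and B1_Mur1 highest with 4.26%. These shares are counts over 1 annotation and 1 set of peaks, with no replicate error. Copies lying whole inside an OCR made up 3.15% of members and 1.18% of young B1, although member copies were also shorter, with a median of 107 bp against 139 bp. Among copies of at least 100 bp the shares were 5.23% of members and 3.02% of young B1. Of member copies outside OCRs, the median distance to the nearest OCR was 2997 bp, against 3422 bp for young B1.

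**Figure D1:**
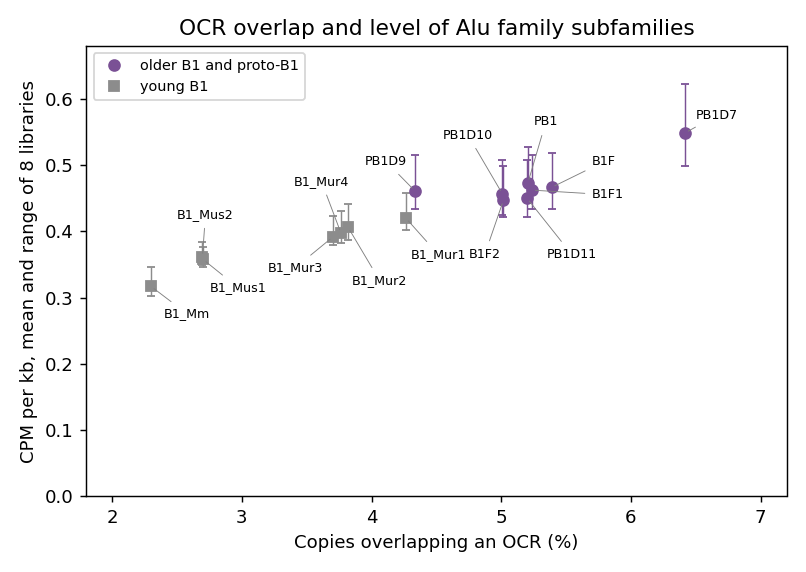
Share of copies that overlap an OCR (x axis, percent) and level (y axis, CPM per kb) of the Alu family subfamilies. Points are means and bars the range of the 8 libraries. PB1D7 sits at the upper right with 6.42% and 0.549 CPM per kb, and B1_Mm at the lower left with 2.30% and 0.317 CPM per kb.

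A typical member copy received few counts. The median copy had a mean of 1.625 counts per library, 1682 copies (0.827%) had no count in any library, and 68.5% to 77.3% of members had a count in a given library. The 1% of copies with the most counts held 15.4% of the members' counts. Of the 100 copies with the highest level, 93 overlapped an OCR, which is itself a peak of this series. PB1D7 supplied 19 of these 100 and 10.8% of all members, B1F supplied 24 of the 100 and 19.3% of members, and PB1D10 supplied 24 and 28.8%.

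Older B1 copies had more counts per kb than young B1 copies in every library. Their level averaged 0.469 ± 0.030 CPM per kb (SD, n = 8), against 0.371 ± 0.010 CPM per kb for young B1. The MIR and ID families of SINEs averaged 0.502 ± 0.049 and 0.520 ± 0.037 CPM per kb, and their difference from older B1 was not tested. In KO F1, F2, M1 and M2 the ratio of older to young counts per kb was 1.26, 1.23, 1.35 and 1.15, and in WT F1, F2, M1 and M2 it was 1.22, 1.24, 1.32 and 1.35. The mean fold was 1.26 (higher in 8 of 8 libraries, exact two-sided sign-flip permutation test within libraries, p = 0.00781, the smallest that 8 libraries can give). The 3 libraries with the most counts in OCRs had the highest ratios, 1.32 to 1.35. The 5 others had 1.15 to 1.26, also all above 1. The part that the share of counts in OCRs plays in this spread was not tested. How reads with several equal matches were placed is not known. The part of read placement in the older-over-young difference and in the OCR shares was not tested. In bulk libraries, a copy open in more cells and a copy more open in each cell cannot be told apart.

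The fold depended on length as a denominator. Member copies are shorter, and counts per copy were 1.01-fold in older over young B1 (0.918 to 1.08, higher in 4 of 8 libraries, exact sign-flip permutation p = 0.758). Within length classes, chosen after the data were seen, the older-over-young fold per kb was 1.05 for copies from 60 to under 90 bp, 1.14 from 90 to under 110 bp, 1.12 from 110 to under 130 bp and 1.25 at 130 bp and over, in 8 of 8 libraries each. For copies under 60 bp it was 0.962, lower in 8 of 8 libraries. The exact sign-flip permutation p was 0.00781 in each of these 5 classes.

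Per kb, each of the 8 large subfamilies exceeded young B1. PB1D7 stood highest with a mean fold of 1.48 (1.31 to 1.61 over libraries), and the other 7 lay between 1.20 (B1F2) and 1.28 (PB1). All 8 were higher in 8 of 8 libraries, with an adjusted exact sign-flip permutation p of 0.00781 over the 8 subfamilies. As counts per copy, 4 of the 8 were below young B1, by log2 differences of -0.033 for PB1, -0.036 for PB1D9, -0.12 for PB1D10 and -0.22 for PB1D11 (exact sign-flip permutation p = 0.00781 for PB1D10 and PB1D11). Per kb, outside OCRs the folds lay between 1.06 (PB1D11) and 1.23 (PB1D7), and overlapping OCRs between 1.18 (B1F2) and 1.56 (PB1D7), again in 8 of 8 libraries each. Single young subfamilies differed, with means from 0.317 CPM per kb (B1_Mm) to 0.420 CPM per kb (B1_Mur1), against 0.447 CPM per kb for B1F2. Outside OCRs the mean of B1_Mur1 (0.355 CPM per kb) was above that of PB1D11 (0.350 CPM per kb). Members were not tested against single young subfamilies.

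**Figure D2:**
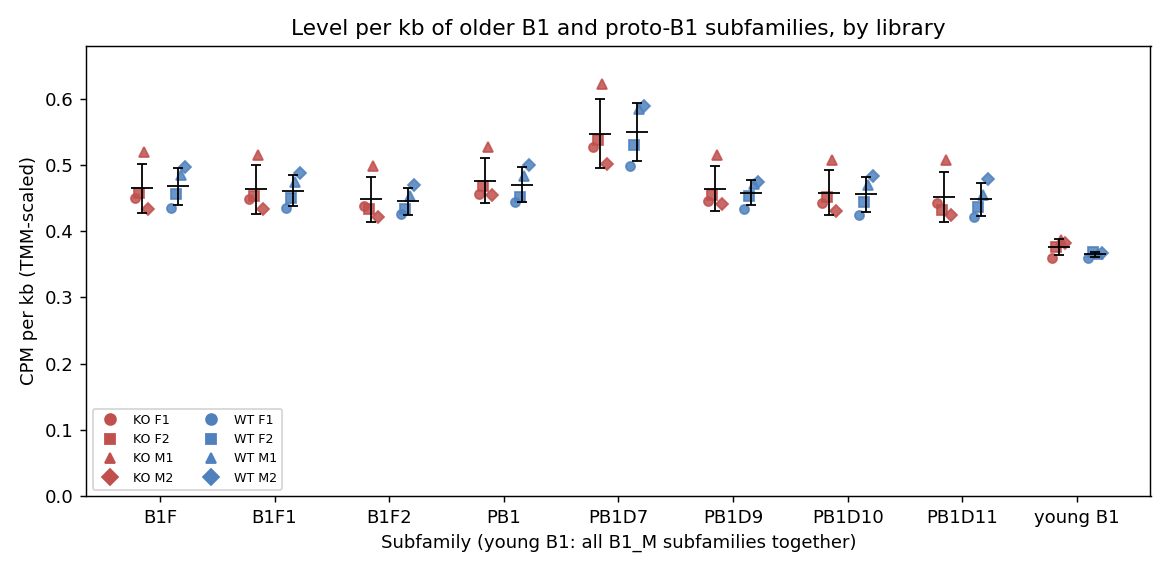
Level (y axis, CPM per kb) of each older B1 or proto-B1 subfamily and of young B1 in each library, with the mean and SD of the 4 KO libraries on the left of each pair and of the 4 WT libraries on the right. PB1D7 ranks first in 8 of 8 libraries, and KO and WT libraries overlap for every subfamily.

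PB1D7 had 0.527, 0.538, 0.622 and 0.501 CPM per kb in KO F1, F2, M1 and M2, against 0.498, 0.530, 0.584 and 0.589 CPM per kb in WT F1, F2, M1 and M2. KO M1 was the highest of the 8, WT F1 the lowest, and the genotypes overlapped. B1F had 0.450, 0.457, 0.519 and 0.433 CPM per kb in the KO libraries and 0.435, 0.456, 0.485 and 0.496 CPM per kb in the WT libraries in the same order, again with overlap. Means of the other 6 over the 8 libraries ranged from 0.447 CPM per kb (B1F2) to 0.473 CPM per kb (PB1). The 13 FAM copies together had 33, 14.5, 40 and 17.5 counts in the KO libraries and 37, 25.5, 10 and 27 counts in the WT libraries, under the minimum of 100 counts set for a test, and are described by these counts alone.

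By mean level the order was PB1D7, PB1, B1F, B1F1, PB1D9, PB1D10, PB1D11 and B1F2. PB1D7 exceeded PB1 by 1.16-fold in 8 of 8 libraries, but none of the 7 neighbouring pairs passed the threshold of 0.05 after adjustment (exact sign-flip permutation, adjusted p = 0.0547 for PB1D7 over PB1 and at least that for the rest). With 8 libraries, 1 pair alone cannot reach a lower adjusted p than 0.0547 over 7 pairs. B1F1 and PB1D9 differed least, by 1.00-fold (0.0021 on the log2 scale, higher in 5 of 8 libraries, adjusted p = 0.727 by the same exact test). Outside OCRs the order changed. PB1D7 led PB1D9 by 1.03-fold, PB1D9 led PB1 by 1.03-fold and PB1 led B1F1 by 1.03-fold, each in 8 of 8 libraries, and PB1D11 was last, 1.04-fold below PB1D10 (adjusted exact permutation p = 0.0137 for each of these 4 pairs). Among copies overlapping OCRs, PB1D7 led B1F by 1.18-fold and B1F1 led PB1D9 by 1.08-fold (adjusted exact permutation p = 0.0273 for both), and the other 5 neighbouring pairs did not pass. Each order came from the same levels that were tested. The pairs and their direction were thus picked by these data, and the p-values do not allow for that.

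The level of both classes was lower the farther copies lay from open chromatin, and the gap between older and young B1 was widest at OCRs. The OCRs are peaks called once for this same series. A higher level at OCRs than away from them therefore follows in part from how they were defined. A copy inside an OCR shares its counts with the OCR in equal fractions, 0.5 each where no other region overlaps, so levels there are lower than the full number of read ends. Member copies overlapping an OCR averaged 2.23 CPM per kb, against 1.67 CPM per kb for young B1, a 1.33-fold difference. This class needs an overlap of only 1 bp, while its level is taken over the whole copy. Of members, 5.19% overlapped an OCR and 3.15% lay whole inside one, against 3.11% and 1.18% of young B1. The part of this unequal overlap in the 1.33-fold difference was not tested. At 1 to 1000 bp older B1 had 0.667 and young B1 0.604 CPM per kb (1.10-fold). Over 1000 and up to 5000 bp older B1 had 0.358 and young B1 0.327 CPM per kb (1.10-fold). All 3 folds held in 8 of 8 libraries (exact sign-flip permutation p = 0.00781 each). Over 5000 and up to 20000 bp the fold was 1.02 (0.972 to 1.05 over libraries, exact permutation p = 0.141), and beyond 20000 bp it was 1.02 (0.967 to 1.07, p = 0.227 by the same exact test), each higher in 6 of 8 libraries. The log2 ratio was larger at OCRs than in each of the other 4 classes, by 0.27 to 0.38, and 0.11 larger at 1000 to 5000 bp than at 5000 to 20000 bp, in 8 of 8 libraries each (adjusted exact permutation p = 0.00781 over these 5 differences). These distance classes were chosen after the data were seen. They also rest on peaks of the same series, so the p-values do not come from classes set independently of the counts. Members were also placed nearer to OCRs, with 11.1% of copies beyond 20000 bp against 16.4% of young B1.

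**Figure D3:**
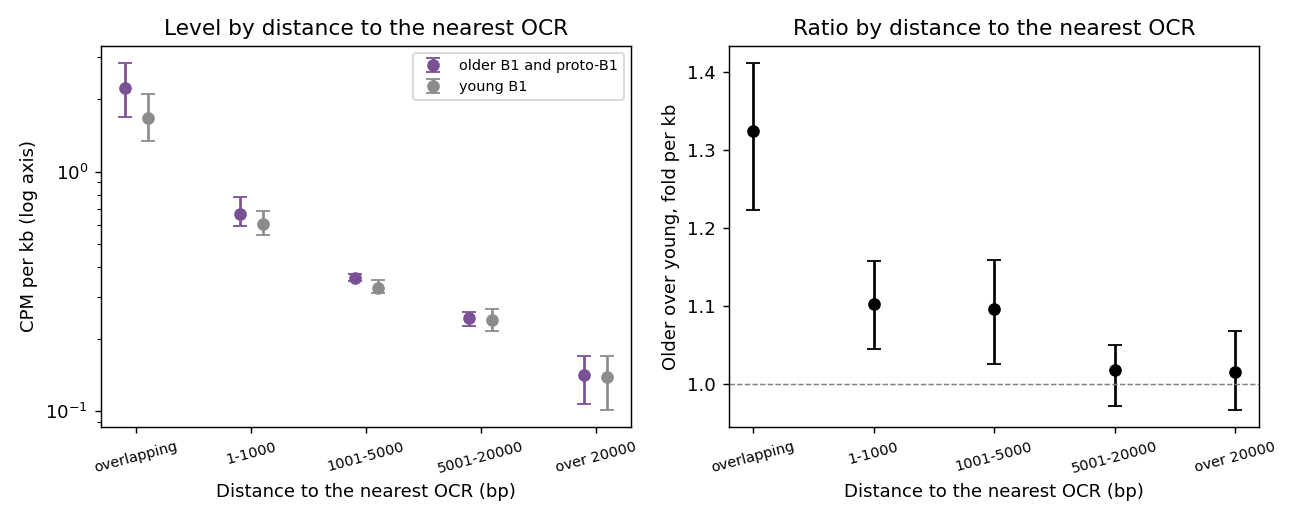
Left, level (log y axis, CPM per kb) of older and young B1 by distance to the nearest OCR in bp. Right, the older-over-young fold per kb in the same classes, with a dashed line at 1. Points are means and bars the range of the 8 libraries. The fold is 1.33 for copies overlapping an OCR and 1.02 in both classes beyond 5000 bp.

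PB1D7 was above the rest of the members in each distance class, and PB1D9 changed side. PB1D7 copies overlapping an OCR averaged 2.63 CPM per kb, against 2.17 CPM per kb for the other members, a 1.21-fold difference. Its fold was 1.11 at 1 to 1000 bp, 1.05 up to 5000 bp, 1.02 from there to 20000 bp and 1.07 beyond 20000 bp, in 8 of 8 libraries in every class. PB1D9 copies overlapping an OCR averaged 2.01 CPM per kb, against 2.26 CPM per kb for the other members (0.893-fold, lower in 8 of 8 libraries), while at 5000 to 20000 bp they were 1.04-fold higher in 8 of 8. These subfamilies were picked for their place in the order, so the values are given with no test.

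The single copy with the highest mean CPM was a PB1D9 element of 121 bp, whole inside an OCR. This copy lay on the unplaced scaffold JH584304.1 (GRCm39, 59096 to 59216). It had 8.12, 8.53, 10.6 and 9.13 CPM in KO F1, F2, M1 and M2, against 7.24, 10.1, 9.24 and 7.75 CPM in WT F1, F2, M1 and M2, with the genotypes overlapping. The next was a B1F copy at chr7:19072641-19072783 with 3.43, 3.28, 4.28 and 2.77 CPM in the KO libraries and 2.47, 4.13, 4.81 and 3.75 CPM in the WT libraries. It was followed by a B1F copy at chr12:75749679-75749811 with a mean of 3.24 CPM, a PB1D7 copy at chr4:57798544-57798642 with 3.12 CPM, a PB1D10 copy at chr18:75815868-75815971 with 3.01 CPM and a B1F2 copy at chr11:86537356-86537518 with 2.82 CPM. All 6 lay whole inside OCRs, which are themselves peaks of this series. Scaffolds held 138 of the 203311 member copies. The part of read placement in the values of copies on JH584304.1 was not tested.

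Outside OCRs, the highest was again on scaffold JH584304.1, a B1F copy at 28171 to 28276, which lay 955 bp from an OCR. It had 2.41, 2.49, 2.35 and 2.08 CPM in the KO libraries and 2.83, 2.56, 1.95 and 1.95 CPM in the WT libraries. A B1F1 copy at chr10:79996614-79996725, 367 bp from an OCR, averaged 2.01 CPM, and a B1F copy at chr5:137099158-137099301, 241 bp from an OCR, averaged 1.92 CPM. The 9 copies named for their level differed between KO and WT by log2 folds of -0.32 to 0.29, all with an adjusted p of 1 in edgeR's quasi-likelihood test. No annotation of this build was used, so genes at these copies are not named.

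No older B1 or proto-B1 subfamily passed the test between genotypes, and all 8 fitted folds lay close to 1. In edgeR's quasi-likelihood test on counts summed per subfamily, 0 of 831 retrotransposon subfamilies passed an adjusted p of 0.05 (0%), and 0 of the 8 members. At an unadjusted p under 0.05 there were 11 of 831 and 0 members, and DESeq2 and limma voom called 0 of 831. Member log2 folds, KO over WT, ran from -0.01 for B1F to 0.02 for PB1, with standard errors of 0.06 to 0.08 and adjusted p of at least 0.992 in edgeR. Their median was 0.01, beside 0.02 over all 831 subfamilies, and 6 of 8 were above 0, beside 503 of 831 (60.5%). For PB1D7 the fold was 0.997 with a 95% interval of 0.879 to 1.13, and for B1F it was 0.994 with an interval of 0.890 to 1.11. All 8 intervals lay within 0.879 to 1.13.

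The KO and WT libraries overlapped in CPM for all 8 members, and 4 of 831 subfamilies (0.481%) had groups that did not overlap. The sign of the small member folds depended on the scaling. With TMM factors over OCRs, which shift the median of all 831 subfamilies to 0.12, members lay at 0.09 to 0.12, and with no scaling factor, where that median is 0.09, they lay at 0.05 to 0.08. With TMM factors over retrotransposon subfamilies the median of all was 0.01 and members lay at -0.02 to 0.01. The sign also depended on single libraries. Without KO M1 the 8 folds were -0.09 to -0.05, without WT F2 and without WT M2 they were -0.05 to -0.01 and -0.05 to -0.02, and without KO M2 they were 0.05 to 0.07, with no call in any.

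**Figure D4:**
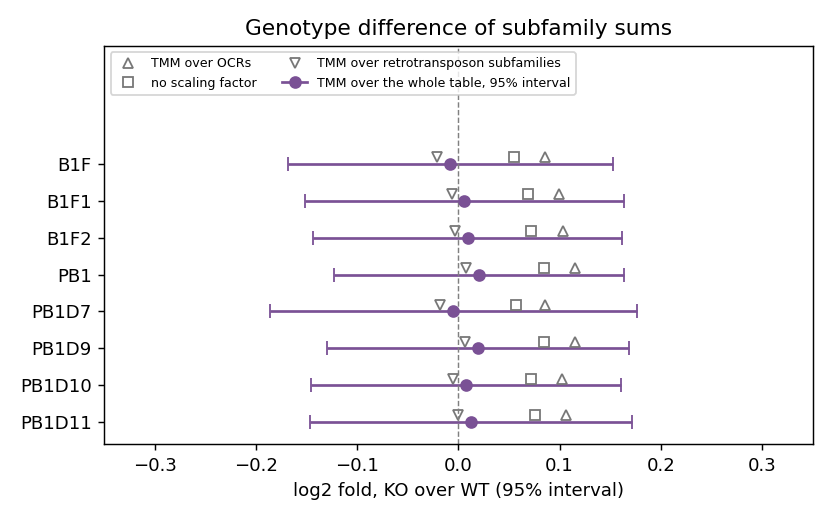
Log2 fold of subfamily counts, KO over WT (x axis), for the 8 tested subfamilies (y axis). Filled points and bars give the fold and 95% interval with TMM factors over peaks and retrotransposon copies (named whole table in the legend). Open symbols give the fold under other scalings. Every interval spans 0.

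Shares of counts need no scaling. Older B1 made up 38.0%, 37.3%, 39.6% and 35.8% of Alu family counts in KO F1, F2, M1 and M2, against 37.1%, 37.5%, 39.1% and 39.6% in WT F1, F2, M1 and M2. KO M2 was lowest and KO M1 highest, so the KO libraries spanned the WT range. KO libraries averaged 37.7% ± 1.6 and WT libraries 38.3% ± 1.2 (SD over 4 libraries per genotype), a difference of -0.631 percentage points (exact two-sided permutation test, p = 0.600, smallest possible 0.0286). The difference was -1.27 points without KO M1 and -0.020 points without KO M2. Copies overlapping an OCR held 24.8%, 23.1%, 28.2% and 20.1% of the members' counts in the KO libraries and 21.3%, 23.9%, 28.1% and 27.8% in the WT libraries. The means were 24.0% ± 3.4 in KO and 25.3% ± 3.3 in WT libraries, with overlap and an exact permutation p of 0.600, and the difference was -2.61 points without KO M1 and 0.106 points without KO M2. The older-over-young ratio averaged 1.25 ± 0.08 in KO and 1.28 ± 0.07 in WT libraries (exact permutation p = 0.600, n = 4 each).

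No member copy passed the test between genotypes either. Of the 203311 copies, 12358 (6.08%) passed the count filter, from 4.90% of PB1D11 to 7.53% of PB1D7 among the 8 large subfamilies and 0 of the 13 FAM copies, and 42.6% of those overlapped an OCR. In edgeR's quasi-likelihood test 0 of 421434 retrotransposon copies were called (0%), and 0 of 12358 members. At an unadjusted p under 0.05 there were 15640 of all copies (3.71%) and 429 members (3.47%), of which 281 were higher and 148 lower in KO. This split turned with 1 library, as 181 of 448 such members were higher in KO without KO M1 and 339 of 400 without KO M2. The same split among all 15640 copies was not counted, so the split of members has no background beside it. The median log2 fold was -0.02 over tested members and 0.03 over all tested copies. DESeq2 called 45 of 45584 copies (0.0987%) and 0 of the 985 members to which it gave an adjusted p. The 95% interval left out a 4-fold difference in both directions for 95.9% of tested members and a 2-fold difference for 27.9%.

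Of the 5 member copies with the lowest p among those higher in KO, the first was a PB1D9 copy at chr6:31085816-31085927, 537 bp from an OCR. It had 0.368, 0.565, 0.387 and 0.648 CPM in KO F1, F2, M1 and M2, against 0.155, 0.217, 0.140 and 0.114 CPM in WT F1, F2, M1 and M2. The groups did not overlap, and the fold was 3.12 (95% interval 1.77 to 5.47, edgeR adjusted p = 0.576). The interval does not allow for the choice of this copy by its low p. The other 4 were a B1F1 copy at chr8:83830804-83830956 (3.39-fold), a PB1D11 copy on scaffold JH584304.1 at 10050 to 10141 (2.64-fold), a B1F2 copy at chr3:95795968-95796103 (3.43-fold) and a PB1D7 copy at chr13:120059229-120059316 (3.14-fold), with edgeR adjusted p of 0.603 to 0.623. The PB1D11 copy had 0.805, 1.46, 0.878 and 1.56 CPM in the KO libraries and 0.534, 0.643, 0.360 and 0.292 CPM in the WT libraries, and it was the only 1 of the 10 copies named here with an adjusted p in DESeq2, 0.0812.

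Of those lower in KO, the first was a PB1D11 copy at chr5:91041332-91041434, 1690 bp from an OCR. It had 0.0766, 0.129, 0.161 and 0.157 CPM in the KO libraries, against 0.248, 0.465, 0.719 and 0.211 CPM in the WT libraries, which gives 0.320-fold (0.170 to 0.601 at 95%, adjusted p = 0.686 in edgeR). The others were a PB1D10 copy at chr7:130273932-130274062 (0.325-fold), a PB1D9 copy at chr1:13374214-13374331 (0.347-fold), a PB1D7 copy at chr8:73079100-73079169 (0.403-fold) and a PB1D9 copy at chr16:56946862-56946963 (0.447-fold), with edgeR adjusted p of 0.860 to 0.948. The groups overlapped for the last 3. Some values rested on few counts. The PB1D10 copy had 0.0460 CPM in KO F1 and 0.0393 CPM in KO M2, where 3 counts equal 0.0460 and 0.0589 CPM. In KO F2 and KO M1 it had 0.113 and 0.145 CPM, and in the WT libraries 0.186 to 0.325 CPM. None of these 10 passed the test, and they are listed as values. As they were picked for low p, a lack of overlap and intervals away from 1 follow in part from that choice. The share of all tested copies whose groups did not overlap was not counted. With a looser filter of at least 1 count in 4 libraries, edgeR called 5 of 2542268 copies (0.000197%) and 1 of 170067 members. This member, named after its values were seen, was a B1F1 copy at chr6:131354430-131354567 with 22, 2, 4 and 139 counts in KO F1, F2, M1 and M2, against 6, 2, 1 and 6 counts in WT F1, F2, M1 and M2. The genotypes overlapped and KO M2 held most of the counts, with a fitted log2 fold of 3.26 and an edgeR adjusted p of 0.0093.

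A dependence of the genotype difference on the sex label was not detectable. In edgeR's interaction test 0 of 831 subfamilies were called (0%) and 0 had an unadjusted p under 0.05, and DESeq2 called 0. Member interaction log2 folds lay between -0.11 (PB1D7) and -0.01 (PB1D9), with standard errors of 0.14 to 0.17 and adjusted p of at least 0.970. With 2 libraries per genotype and sex label, and KO F2 against its label, the 95% intervals were as wide as -0.51 to 0.28 for PB1D7. Without KO M1 the member values were -0.34 to -0.18 (lowest adjusted p = 0.160) and 209 of all 831 subfamilies had an unadjusted p under 0.05. Without KO M2 the member values were 0.03 to 0.10, and without WT F2 or WT M2 they were -0.23 to -0.10, with no call. In the same kind of fit the libraries labelled male exceeded those labelled female by 0.09 to 0.13 on the log2 scale for the 8 members, beside a median of 0.03 over all 831, with an edgeR adjusted p of 0.602 for each and 0 of 831 called (0%). Without KO F2 the member values were 0.09 to 0.15 and 1 of 831 subfamilies was called (0.12%), none of them a member. The 3 libraries with the most counts in OCRs are all labelled male, and their part in this difference was not tested.

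Chromosomes differed in both measures. On the autosomes, overlap with OCRs ran from 4.50% of member copies on chromosome 12 to 6.27% on chromosome 15, and the mean level from 0.422 CPM per kb on chromosome 13 to 0.543 CPM per kb on chromosome 7. The X chromosome held 10444 member copies, of which 2.22% overlapped an OCR, and had 0.230 CPM per kb. The ratio of X to autosomal level was 0.411 and 0.451 in KO M1 and M2 and 0.404 and 0.414 in WT M1 and M2, against 0.588 in KO F1 and 0.558 and 0.545 in WT F1 and F2. The means were 0.420 ± 0.021 in the 4 labelled male and 0.564 ± 0.022 in the 3 others labelled female, and the groups did not overlap with KO F2 left out or kept (exact two-sided permutation p = 0.0286 both ways, the smallest possible). Young B1 gave 0.444 ± 0.038 in the libraries labelled male, 0.639 ± 0.037 in the 3 labelled female and 0.509 in KO F2. The ratio of KO F2 for older B1, 0.455, was close to that of KO M2, the highest of the libraries labelled male. No difference by genotype was tested within sex labels because each holds 2 libraries per genotype.

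**Figure D5:**
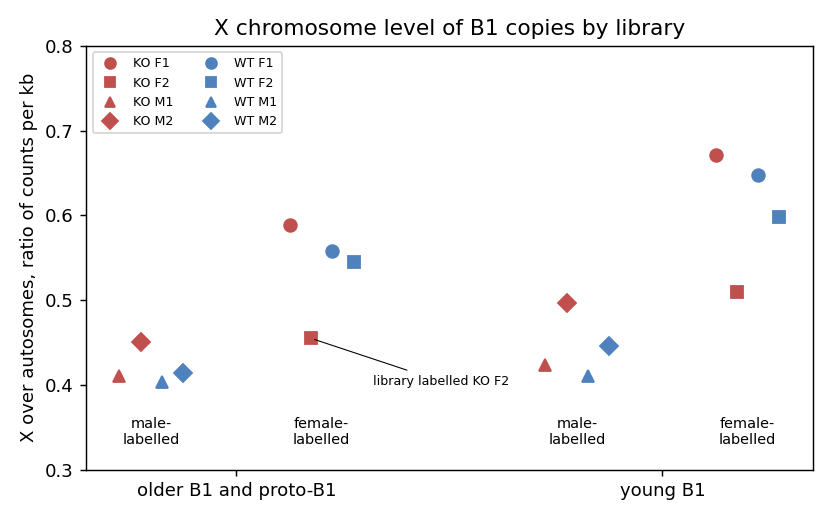
Ratio of counts per kb on the X chromosome to counts per kb on the autosomes (y axis) in each library, for older B1 and proto-B1 (left) and young B1 (right), by sex label. The libraries labelled male lie at 0.404 to 0.451 for older B1, 3 labelled female at 0.545 to 0.588, and the library labelled KO F2 at 0.455.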

How the data were processed

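The tools listed in the submitters' processing notes were MACS2, bedtools, Bowtie2, SAMtools, Picard, Trim Galore and featureCounts, with GRCm39 as the genome. The deposited values are estimated counts made by featureCounts 2.0.3 over peaks and repeats in a single annotation, per the file headers. Only pairs with both mates aligned were used, a read counted at its 5′ end alone, and an end lying in more than 1 region was divided equally among them. How reads with several equal matches were placed, and whether positions were shifted for the transposase, is not given in the sources used here, so values of single copies with near-identical relatives are uncertain. Effects on the levels of whole subfamilies, and so on older against young B1, were not tested.

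Estimated counts were rounded for edgeR 4.0.16 (R 4.3.3, quasi-likelihood, robust, sex label as covariate), with library sizes taken as table totals and TMM factors over peaks and retrotransposon copies. Subfamily sums needed a mean of 100 counts per library, and copies passed filterByExpr with the fitted design. P-values were adjusted by Benjamini-Hochberg over all features tested, with a threshold of 0.05. Ratios of older to young B1 were tested by exact sign flips over 8 libraries (256 patterns), and shares by exact permutation (70 assignments of 4 against 4). Scripts were tested on simulated data. Alternatives were DESeq2 1.42.0, sample-weighted voom in limma 3.58.1, a replicate block, changed denominators, filters and scalings, and the omission of each library in turn.

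Members and lists were chosen with earlier results of these data known. By rule, the text names every member subfamily, the 5 copies of lowest p in each direction, the 6 copies of highest mean CPM and the 3 highest outside OCRs. Binomial intervals cover counting error only. Genes, cell-type markers, the Cgas locus and sequences were not analysed here.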

Additional observations from a re-analysis of the deposited data

Results flagged for a closer look

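The PB1D7 copy at chr8:73079100-73079169 had 0.419 CPM in KO M1, far from the 3 other KO libraries, which lay between 0.107 and 0.118 CPM. The gap took up 0.966 of the KO range. In all, 62 groups of 4 libraries were checked for such a value, and chance marks about 1 in 20 of them.

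The B1F copy on scaffold JH584304.1 at 28171 to 28276 moved in opposite directions by sex label. Among libraries labelled male, both KO values (2.35 and 2.08 CPM) lay above both WT values (1.95 and 1.95 CPM), a log2 fold of 0.19. Among libraries labelled female, both KO values (2.41 and 2.49 CPM) lay below both WT values (2.83 and 2.56 CPM), a log2 fold of -0.14. The 2 folds differed by 0.32 on the log2 scale, and the difference was not tested. With 2 libraries per genotype and sex label such a pattern can arise by chance, and its chance rate was not worked out. KO F2, which goes against its sex label, is among these libraries.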

How the results depend on the processing

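The older-over-young difference per kb (log2 0.34) lay between 0.32 and 0.36 with each library left out. It was 0.025 at 5000 to 20000 bp and 0.022 beyond 20000 bp from an OCR (exact permutation p = 0.141 and 0.227), -0.056 for copies under 60 bp, and 0.0083 as counts per copy (p = 0.758). Per copy, PB1 was at -0.033, PB1D9 at -0.036, PB1D10 at -0.12 and PB1D11 at -0.22, with p = 0.00781 by the same exact test for PB1D10 and PB1D11. The gap in OCR overlap (2.08 percentage points) was 1.97 for copies whole inside an OCR and 2.22 for copies of at least 100 bp. The KO minus WT share difference in Alu counts lay between -1.27 and -0.020 points with each library left out. It was 0.0139 percentage points of SINE counts and 0.0444 of the whole table (exact permutation p = 0.886 and 0.457), both opposite in sign to that of Alu counts, and the cause was not tested. The genotype difference in the OCR share of counts lay between -2.61 and 0.106 points with each library left out, the highest value being without KO M2.

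No setting called a member subfamily. Their signs changed with the setting, and the cause was not tested. Under TMM over OCRs B1F was at 0.085 and PB1D7 at 0.086, with no scaling factor at 0.055 and 0.057, under limma voom at 0.033 and 0.047, and for copies outside OCRs at 0.015 and 0.018. Under DESeq2 B1F1 was at -0.0080, B1F2 at -0.0048, PB1D10 at -0.0067 and PB1D11 at -0.0012, and under TMM over retrotransposon subfamilies B1F1 was at -0.0068, B1F2 at -0.0037 and PB1D10 at -0.0055. Leaving out each library gave -0.087 to 0.049 for B1F, -0.073 to 0.059 for B1F1, -0.070 to 0.058 for B1F2, -0.051 to 0.066 for PB1, -0.067 to 0.059 for PB1D10, -0.069 to 0.065 for PB1D11, -0.090 to 0.065 for PB1D7 and -0.058 to 0.063 for PB1D9. The interaction ranged over -0.26 to 0.055 for B1F, -0.24 to 0.071 for B1F1, -0.21 to 0.087 for B1F2, -0.21 to 0.057 for PB1, -0.25 to 0.047 for PB1D10, -0.22 to 0.091 for PB1D11, -0.34 to 0.033 for PB1D7 and -0.18 to 0.10 for PB1D9, which was at 0.0018 under DESeq2 and 0.0062 under TMM over retrotransposon subfamilies.

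Same-numbered KO and WT libraries did not deviate together in all pairs (r = 0.587, 0.606, -0.293 and -0.446 over OCRs for F1, F2, M1 and M2), so the numbers were not taken as pairs. With a replicate block the member folds ran from -0.011 to 0.018 on the log2 scale, and 0 subfamilies and 0 copies were called.

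With copies of at least 1 count in 4 libraries, 1 member copy was called (edgeR adjusted p = 0.0093, against 0.0812 to 1 for the lowest member under the other settings, none of which called a member). KO M2 held 139 of its counts, and no other library more than 22. The median of all member copies was 1.625 counts per library.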
